A study of Mus musculus with 12 samples.

Results

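Slc13a2, Dct, Adgrf1 and Moxd1 were followed in the livers of male C57BL/6NJcl mice during the first weeks on a diet used to induce nonalcoholic steatohepatitis, a fatty liver with inflammation and scarring. The 4 genes, of 13897 tested and 21609 with a named probe, were selected on their measured loss under the diet in these same arrays, so their diet differences are a description and carry no test. RNA from whole liver was hybridised to 12 one-colour Agilent arrays in 6 groups of 2. Mice on CDAHFD (a choline-deficient, L-amino acid-defined feed with 60% of its energy from fat and 0.1% methionine) and mice on CE-2, a standard chow, were taken at 1, 2 and 6 weeks of feeding, when they were 7, 8 and 12 weeks old. All were of one strain and sex, with no transgene or drug, and all had 1 week of acclimatization beforehand. Time on diet and age therefore rise together, and the chow differs from CDAHFD in more than choline. The labels do not say whether the 2 arrays of a group came from separate mice, and the errors given here measure no more than array-to-array spread, part or all of which may be technical.

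Each of the 4 genes is best known outside the liver or outside its standard metabolic pathways. Slc13a2 encodes a sodium-coupled transporter that carries succinate, citrate and other dicarboxylates into cells, and is known chiefly from the apical membrane of kidney tubule and small intestine. Dct encodes dopachrome tautomerase, a melanosomal enzyme that converts dopachrome during the making of eumelanin in pigment cells. Adgrf1 encodes an adhesion G protein-coupled receptor, one of a family of receptors with long extracellular parts that are cut at an internal site, and it responds to synaptamide, a derivative of docosahexaenoic acid. Moxd1 encodes a member of the copper-dependent monooxygenases, the enzyme class of dopamine beta-hydroxylase, and its own substrate is not settled. Whole-liver RNA does not say which cell type held these transcripts, and fewer cells of a type cannot be told apart from less RNA per cell.

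The stretches just upstream of the 4 genes are shown because 3 of them were low together in every CDAHFD array, and a reader may want to see what each promoter holds. The sequences are RefSeq's, build GRCm38.p6, 150 bases each, 5′ to 3′ on the gene's own strand. They end 48, 1, 65 and 1 bases before the start from which distances are counted. In Slc13a2 and Adgrf1 the 47 and 64 bases next to that start lie inside another annotated transcript and are not printed. Capitals mark matches, on either strand, to TATAA (TATA box), GGGCGG (GC box), CATGTG (the E-box bound by MITF), GTTAAN (a half-site of HNF1), and TTCNNNGAA (STAT5). CAAAGTCCA (HNF4A) and TGTTTNC (FOXA) were also searched.
Slc13a2, chr11:78422282-78422431, minus strand: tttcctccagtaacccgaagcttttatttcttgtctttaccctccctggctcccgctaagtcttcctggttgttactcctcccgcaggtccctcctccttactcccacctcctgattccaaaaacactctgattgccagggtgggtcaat
Dct, chr14:118052247-118052396, minus strand: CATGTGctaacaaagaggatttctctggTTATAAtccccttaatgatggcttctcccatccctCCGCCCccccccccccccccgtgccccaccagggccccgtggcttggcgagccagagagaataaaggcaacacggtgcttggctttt
Adgrf1, chr17:43270133-43270282, plus strand: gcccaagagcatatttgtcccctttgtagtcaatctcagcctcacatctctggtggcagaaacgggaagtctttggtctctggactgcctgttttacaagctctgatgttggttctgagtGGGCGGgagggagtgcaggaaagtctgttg
Moxd1, chr10:24223367-24223516, plus strand: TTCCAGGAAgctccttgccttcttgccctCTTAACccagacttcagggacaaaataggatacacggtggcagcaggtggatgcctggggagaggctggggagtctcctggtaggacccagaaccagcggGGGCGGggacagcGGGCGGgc

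No searched motif was in all 4 windows, although a GC box was in 3 of them, those of Dct, Adgrf1 and Moxd1. The searches covered the 250 bases before each start, of which 150 are printed. Dct held CATGTG 150 to 145 bases before its start, and a second match 232 to 227 bases before it that lies outside the printed stretch, a word found in 12.3% of 32851 promoters of that length. It also held TATAA at 122 to 117 bases, on both strands and overlapping, and a GC box at 87 to 82 bases. In Slc13a2 the matches lay nearer the start than the printed stretch, inside the other annotated transcript. TATAA was at 28 to 21 bases, on both strands and overlapping. GTTAAN was at 46 to 41 bases, where 1 palindromic match reads the same on both strands. Adgrf1 held a GC box at 94 to 89 bases. Moxd1 held TTCNNNGAA at 150 to 142 bases, GTTAAN at 121 to 116 bases, and GC boxes at 21 to 16 and 8 to 3 bases. TATAA occurred in 22.8% of promoters, GGGCGG in 32.7%, GTTAAN in 21.6% and TTCNNNGAA in 7.02%. The HNF4A word, found in 0.384% of promoters, and the FOXA word, found in 17.8%, were in none of the 4 windows. A match of letters is a description and not a bound site.

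Between 41.6% and 45.7% of the spots of a control array were well above background, against 46.9% to 51.0% on a CDAHFD array. The scanner's flag for this compares a spot with its local background, and no spot was saturated on any array. The arrays of 1 and 2 weeks shared 1 slide and scan and those of 6 weeks another, so the diets were compared within a slide, whereas week 6 and slide cannot be told apart. The first 1-week control array had a dim corner of 1335 probes, and none of the 5 probes of these 4 genes lay in it. The labelled tissue was borne out by the 24 hepatocyte identity genes, each of them detected on every array. Across all genes, limma called 15% lower and 25.9% higher at 1 week of CDAHFD (adjusted p under 0.05), 14.9% lower and 22.9% higher at 2 weeks, and 16.2% lower and 24.5% higher at 6 weeks. The genes below were chosen on these contrasts, so nothing is read from their place against those shares.

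Levels are log2 signals relative to the array's own 75th percentile, taken over probes well above background on all arrays, and have no common zero between genes. Differences between diets are in log2 units, CDAHFD minus control, with the median of all genes set to 0, and their standard error comes from the fit to all 12 arrays.

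**Figure D1:**
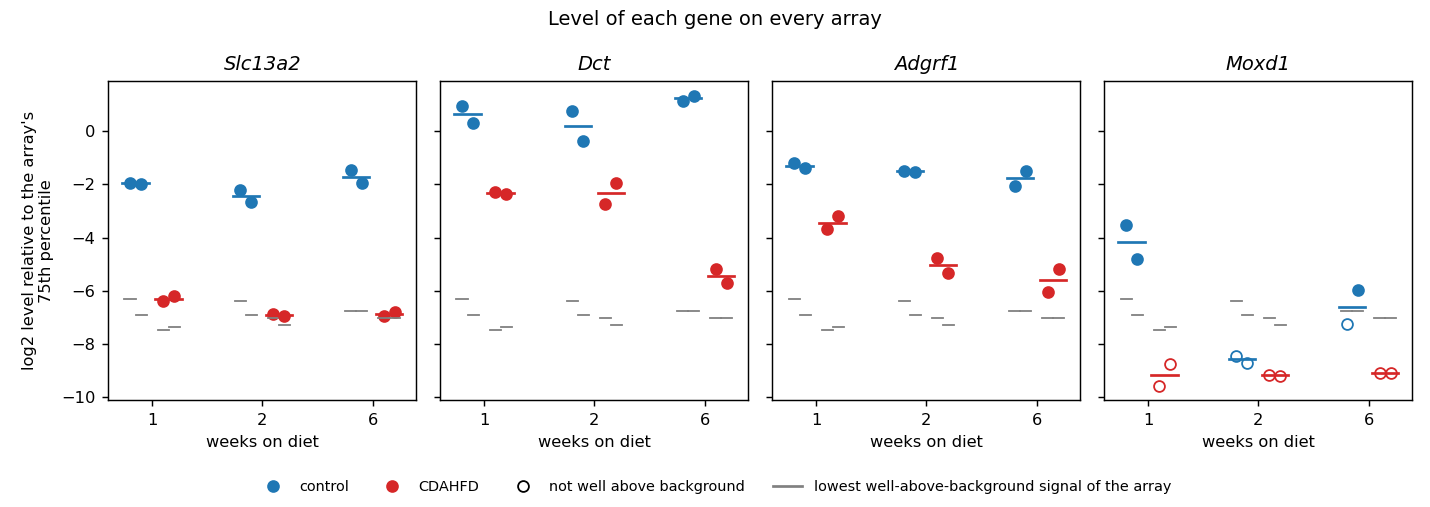
The level of each gene on every array, on a log2 scale relative to the array's 75th percentile, is plotted against weeks on diet for control (blue) and CDAHFD (red). Coloured bars are means of the 2 arrays, open circles are spots not well above background, and grey ticks are the lowest well-above-background signal of that array. Slc13a2, Dct and Adgrf1 are lower on all 6 CDAHFD arrays than on any control array, and Moxd1 is above background on 3 control arrays alone. The genes were chosen for their loss in these arrays, and the share of all genes that separate the diets in this way was not counted.

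Slc13a2, the dicarboxylate transporter, was low in CDAHFD liver from the first time point on. In controls its log2 level was -1.96 and -1.97 at 1 week, -2.22 and -2.67 at 2 weeks, and -1.46 and -1.96 at 6 weeks. In CDAHFD it was -6.39 and -6.21, then -6.87 and -6.96, then -6.95 and -6.80. The highest CDAHFD array, at -6.21, lay below the lowest control array, at -2.67, in a gene chosen for its loss. In the scanner's processed signal, before scaling, the control arrays read 203 to 438 and the CDAHFD arrays 12.6 to 24.3.

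The diet difference of Slc13a2 was -4.46 at 1 week, -4.52 at 2 weeks and -5.20 at 6 weeks (SE 0.21, n = 2 arrays per group), or 22.0-, 22.9- and 36.8-fold lower. It ranked 3rd, 3rd and 7th from the lowest of 13897 genes. The probe was well above background on all 12 arrays, but in CDAHFD it lay only 0.16 to 0.33 above the lowest measurable signal at 2 weeks and 0.09 to 0.23 above it at 6 weeks, compared with over 1 log2 unit at 1 week. The signal therefore had almost no room to be read lower after the first week. With a normexp background correction and an offset of 50, which draws dim signals together, the differences were -2.67, -2.36 and -2.99, or 6.38-, 5.14- and 7.94-fold. The larger gap at 6 weeks than at 1 week, by 0.74 (SE 0.30), stood beside a control level 0.23 higher and a CDAHFD level 0.57 lower at 6 weeks than at 1 week, each relative to the median change of all genes in its own contrast.

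The order of the group means of Slc13a2 was control at 6, 1 and 2 weeks, followed by CDAHFD at 1, 6 and 2 weeks. The lower 6-week control and the higher 1-week control were equal to 2 decimals, and the CDAHFD arrays of 6 and 2 weeks overlapped each other.

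Dct, the melanin enzyme, was lower in CDAHFD at 1 and 2 weeks and lower again at 6 weeks. Its control log2 levels were 0.96 and 0.33 at 1 week, 0.75 and -0.35 at 2 weeks, and 1.12 and 1.35 at 6 weeks. In CDAHFD they were -2.30 and -2.36 at 1 week, -2.74 and -1.94 at 2 weeks, and -5.17 and -5.70 at 6 weeks. The CDAHFD arrays of 1 and 2 weeks overlapped each other, and both 6-week arrays lay below all 4 of them. The processed signal was 1013 to 3585 in controls and 35.3 to 497 in CDAHFD.

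The diet difference of Dct was -3.11 at 1 week and -2.59 at 2 weeks, or 8.61- and 6.02-fold lower, and -6.70 at 6 weeks, or 104-fold lower (SE 0.40, n = 2 arrays per group). Among all genes it ranked 11th, 39th and 3rd from the lowest. Between 1 and 2 weeks the difference moved by 0.52, and between 2 and 6 weeks by -4.11 (SE 0.56 for each). Within CDAHFD the level at 6 weeks was 3.10 lower on the log2 scale than at 1 week, and within controls it was 0.57 higher, with the slides differing in both. Under normexp the 6-week difference was -5.21, or 37.0-fold, and the 1-week difference -2.52, or 5.74-fold.

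A second Dct probe, set aside because the first had the higher mean level, gave the same course. It was well above background on 11 arrays, against 12 for the first. Its differences were -3.09, -3.02 and -6.91 at 1, 2 and 6 weeks. Its control levels ran from -0.48 to 0.50 and its CDAHFD levels at 1 and 2 weeks from -3.67 to -2.80. At 6 weeks in CDAHFD it read -6.09 and -6.91, and the lower of these was not well above background. The group means of both probes put control at 6, 1 and 2 weeks first, then CDAHFD at 1, 2 and 6 weeks.

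Adgrf1, the adhesion receptor, was the gene whose diet gap was smallest at 1 week and wider at each later week. Its control log2 levels were -1.19 and -1.39 at 1 week, -1.51 and -1.52 at 2 weeks, and -2.04 and -1.48 at 6 weeks. In CDAHFD they were -3.69 and -3.19, then -4.77 and -5.32, then -6.03 and -5.19. Each later CDAHFD mean was lower than the one before it, but the arrays of 2 and 6 weeks overlapped, whereas both 1-week arrays lay above all 4 later ones. The processed signal was 292 to 505 in controls and 23.7 to 196 in CDAHFD, well above background throughout.

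The diet difference of Adgrf1 was -2.28 at 1 week, -3.58 at 2 weeks and -3.89 at 6 weeks (SE 0.31, n = 2 arrays per group), or 4.85-, 12.0- and 14.8-fold lower. It ranked 38th, 9th and 20th from the lowest. The gap moved by -1.31 from 1 to 2 weeks and by -0.30 from 2 to 6 weeks (SE 0.43 for each). The CDAHFD level alone was 2.17 lower on the log2 scale at 6 weeks than at 1 week. Under normexp the differences were -1.67, -2.51 and -2.53, or 3.19-, 5.71- and 5.77-fold.

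Moxd1, the copper monooxygenase relative, did not show a loss that could be followed over time. It was well above background on 3 arrays, which were both 1-week controls, at -3.53 and -4.82, and 1 of the 6-week controls, at -5.96. The other 6-week control read -7.27, the 2-week controls read -8.45 and -8.73, and the 6 CDAHFD arrays lay between -9.58 and -8.77, all of them not well above background. At 1 week the gene was at least 9.60-fold lower in CDAHFD, where the dim side is set to the lowest signal measurable on those arrays. The bound was -3.26 on the log2 scale, -2.62 without the first 1-week control and -3.91 without the second, and normexp gave at least 3.01-fold.

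At 2 weeks both diets were below background for Moxd1 and no fold is given. At 6 weeks it was at least 1.34-fold lower, with 1 of 2 controls measured, a log2 bound of -0.42 that became -1.07 without the 6-week control that was not measured. The controls themselves differed between weeks, the 2-week controls being at least 5.63-fold lower than the 1-week controls, and both 6-week controls, 1 of them not well above background, lay below both 1-week controls. With the controls of 2 and 6 weeks in place of those of 1 week, the 1-week bound was 0.17, on the other side of 0, so no loss could be stated. The 1-week bound of Moxd1 thus rests on the 1-week controls, the 6-week bound is small, and a steep loss was measured at 1 week alone. The summed level of the kidney markers was likewise higher in the 1-week controls, at 0.0703 to 0.0826, than in the controls of 2 and 6 weeks, at 0.0427 to 0.0479. Kap, Umod, Slc12a1 and Slc12a3 of that list were on no array, and the part of kidney RNA in the Moxd1 and Slc13a2 levels was not tested.

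**Figure D2:**
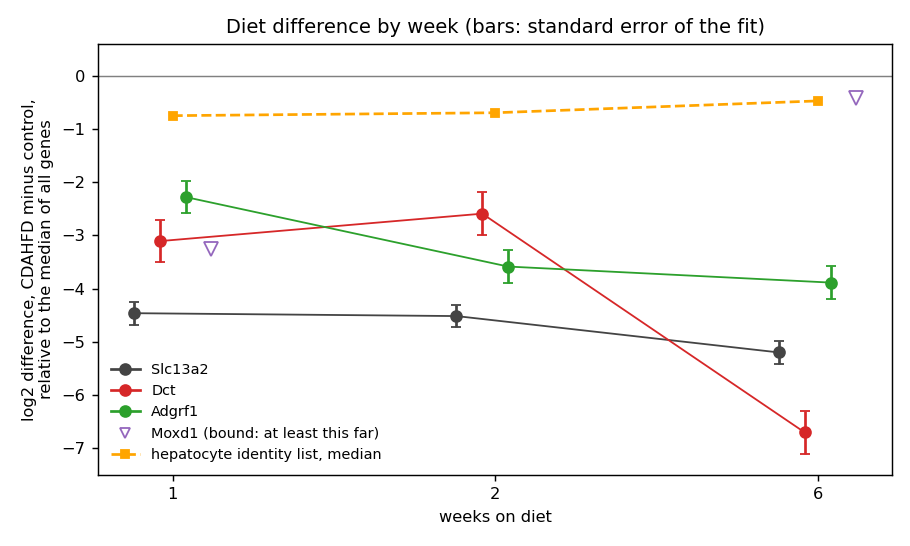
The log2 difference between diets, CDAHFD minus control and relative to the median of all genes, is plotted by week for each gene, with bars for the standard error of the fit. Open triangles are bounds for Moxd1, not taken relative to that median and absent at 2 weeks, and the dashed line is the median of 24 hepatocyte identity genes, which lies at -0.75, -0.69 and -0.47. Slc13a2 lies at -4.46 at 1 week and -5.20 at 6 weeks, and its CDAHFD signal is close to the lowest measurable at 2 and 6 weeks. Adgrf1 widens by 2 weeks, and Dct drops at 6 weeks.

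Whether a level differed between 1 and 2 weeks within one diet could be tested for Slc13a2, Dct and Adgrf1, since those arrays share a slide. The genes were chosen for a loss between diets, but which week chose each is not recorded and the arrays are the same, so these p-values are not independent of the choice. Of these 6 limma tests, 0 passed an adjusted p of 0.05 and 3 had an unadjusted p under 0.05, beside 8.1% of all genes called between these weeks within control and 0.281% within CDAHFD. The count over all genes within CDAHFD was 39, from 1 without the second 1-week CDAHFD array to 99 without the second 6-week one. The log2 change of Adgrf1 within CDAHFD was -1.60 (SE 0.31, limma adjusted p = 0.0774), lower in both arrays of the later week. Over 23 alternatives its adjusted p ran from 0.0164 to 0.576, and it passed in 4 of them (normexp, array weights, and without either 6-week CDAHFD array). Slc13a2 within CDAHFD gave -0.61 (SE 0.21, limma adjusted p = 0.309) and within control -0.50 (limma adjusted p = 0.179). Dct gave -0.01 within CDAHFD (SE 0.40, limma adjusted p = 1.00) and -0.46 within control (limma adjusted p = 0.507). Adgrf1 within control gave -0.23 (limma adjusted p = 0.679). None of these shows that levels stayed the same.

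The 4 genes were set against relatives on lists that cover the same transporters, pathways and receptor family, with the 4 themselves left out. Of all genes, 15%, 14.9% and 16.2% were called lower at 1, 2 and 6 weeks, and 25.9%, 22.9% and 24.5% higher. These shares stand beside the counts of every list and marker set below. For Slc13a2 the list held the Slc13 transporters and the genes of citrate and succinate handling, 22 of them measured. At 1 week 10 of them fell and 1 rose, at 2 weeks 6 fell and 3 rose, and at 6 weeks 10 fell and 3 rose, with medians of -0.50, -0.27 and -0.43 beside 0 for all genes. Over the alternatives the number that fell ran from 5 to 16, 4 to 11 and 6 to 13.

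The other Slc13 transporters did not share the low levels of Slc13a2. Slc13a5, the citrate transporter of the hepatocyte plasma membrane, rose at every week, by 1.35, 3.12 and 3.58 (SE 0.23, limma adjusted p = 6.24e-04, 5.05e-06 and 1.65e-06). It was higher under every alternative run, and the 1-week call alone was lost, with normexp (limma adjusted p = 0.0576, range over the alternatives 1.45e-05 to 0.0576). Slc13a3, which also carries dicarboxylates, differed by 0.06 at 1 week (limma adjusted p = 0.346), or by 0.77 with the later controls in place of those of 1 week (adjusted p = 9.79e-04; up to 0.979 over the alternatives), and rose by 0.87 at 2 weeks and 1.71 at 6 weeks (SE 0.16, limma adjusted p = 0.00112 and 1.48e-05). Slc13a4, a sulfate transporter, fell by 1.16 at 6 weeks (SE 0.32, limma adjusted p = 0.0161), after 0.48 and -0.25 at the earlier weeks, which did not pass. The 6-week call of Slc13a4 was lost with normexp and without either 6-week control or the first 6-week CDAHFD array (adjusted p over the alternatives 0.00567 to 0.0865). Slc13a1 was on no array.

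Among the genes that handle these acids, Sucnr1, the succinate receptor, fell by 0.81, 1.68 and 2.00 (SE 0.19, limma adjusted p = 0.0162, 1.01e-04 and 2.29e-05). Me1, the cytosolic malic enzyme, fell by 1.21, 1.25 and 2.17. Sdhb, the iron-sulfur subunit of succinate dehydrogenase, fell by 1.23, 1.06 and 0.68, and Fh1, fumarase, fell by 0.89, 1.33 and 0.85. Each of these passed limma's test at every week. The 1-week call of Sucnr1 was lost in 4 of 24 alternatives, among them without either 1-week control, and that of Fh1 in 3. The probes of Sdhb disagreed, and with their mean in place of the probe read here it was 1.52 at 1 week and passed at no week.

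For Dct the list of melanin synthesis and pigment cell genes gave few measured partners. Of 13 with a probe, 7 were measured, and Tyrp1, Mlana, Oca2, Slc45a2, Gpr143 and Mc1r were on no array. Of the measured, 3 rose and 0 fell at 1 week, 2 rose and 0 fell at 2 weeks, and 2 rose and 1 fell at 6 weeks, with medians of 0.47, 0.20 and -0.27, which took either sign over the alternatives. With normexp the counts at 1 week turned round, 0 rising and 3 falling. Tyr, the tyrosinase that starts melanin synthesis, differed by -0.87, -0.31 and -0.59 and passed at no week (limma adjusted p = 0.126, 0.614 and 0.251). Mitf, the transcription factor of pigment cells, rose by 0.51, 0.93 and 0.79, and Ednrb, the endothelin receptor B, also known from endothelial cells, rose by 1.22, 1.07 and 1.28. The 1-week call of Mitf was lost in 5 of 24 alternatives, among them normexp and without the second 1-week control or the first 1-week CDAHFD array, and that of Ednrb with normexp. The 1 gene called lower at 6 weeks was Sox10, which was not well above background on any 6-week array of either diet, so no size is given and its call says nothing of a direction. Pmel, also on the list, differed by -0.92 and -0.85 at 1 and 6 weeks, and Slc24a5 by 0.74 and 0.77. Neither passed at any week, and Pmel was not well above background on any 2-week array. The summed level of the list was 0.354 to 0.440 in controls and 0.526 to 0.718 in CDAHFD, the opposite direction to Dct. Bright genes weigh most in this sum, which does not show the direction of each gene.

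Mif and Ddt, secreted proteins whose fold can tautomerise a dopachrome isomer in the test tube, formed a separate list set beside Dct. Ddt fell by 1.11, 0.76 and 0.67 (SE 0.13, limma adjusted p = 3.20e-04, 0.00201 and 0.00345). Mif fell by 1.21 at 1 week (limma adjusted p = 9.63e-04), and its -0.49 and -0.37 at 2 and 6 weeks did not pass (limma adjusted p = 0.0779 and 0.156). The 1-week call of Mif was lost when the later controls took the place of those of 1 week (adjusted p = 0.154, the highest of 24 alternatives, down to 9.64e-05). Their largest differences were at 1 week, and that of Dct at 6 weeks.

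For Adgrf1, 16 of 28 adhesion receptors with a probe were measured. At 1 week 8 rose and 1 fell, at 2 weeks 5 rose and 2 fell, and at 6 weeks 5 rose and 3 fell, with medians of 0.56, 0.15 and 0.45. The number that rose was 1, 2 and 3 with normexp, and at 1 week 3 without the first CDAHFD array, and the medians of 1 and 2 weeks changed sign under some alternatives. In its own subfamily, Adgrf2, Adgrf3 and Adgrf4 were on no array. Adgrf5, a receptor of endothelial and lung epithelial cells, was called higher at 1 week by 0.34 (limma adjusted p = 0.0160), a call lost in 6 of 24 alternatives, differed by 0.18 at 2 weeks, which did not pass, and fell by 0.75 at 6 weeks (limma adjusted p = 0.00151). The 1 adhesion receptor that fell at 1 week was Celsr1, by 1.40 (SE 0.37, limma adjusted p = 0.0233), a call lost in 4 of 24 alternatives. Its -1.08 and -0.84 at 2 and 6 weeks did not pass. Adgra3 and Adgrg3 fell by 0.57 and 0.58 at 2 weeks, and Adgrg3 and Adgrl4 by 0.53 and 1.26 at 6 weeks. The calls of Adgra3 and Adgrg3 were lost with median centring.

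Receptors known from other cells were among those that rose. Adgre5, the leukocyte receptor CD97, rose by 0.88, 1.26 and 1.44, and Adgre1, a macrophage marker, rose by 1.58 and 1.49 at 2 and 6 weeks, while its 0.99 at 1 week passed (limma adjusted p = 0.0459) but did not pass under 14 of 24 alternatives. Adgrv1 rose by 1.24 and 1.46 at 1 and 2 weeks and its 0.48 at 6 weeks did not pass, and with normexp neither earlier call was kept. Adgra2, known from vessels and fibroblasts, rose by 1.23 at 6 weeks. Adgrg2 was below background on every control array and at least 1.48-fold and 1.38-fold higher at 2 and 6 weeks. Of 8 macrophage markers, Adgre1 among them, 4 rose and 1 fell at 1 week, the latter Itgam at -1.09, and 6 rose and 0 fell at 2 and at 6 weeks. Of 8 stellate cell markers 6 rose and 0 fell at every week, and of 6 endothelial markers 1 rose at each week and 0, 0 and 3 fell. The summed macrophage level was 4.90 to 9.45 in controls and 13.0 to 20.3 in CDAHFD, and the summed stellate level 1.18 to 2.54 and 8.39 to 13.0. Their part in the receptor levels was not tested.

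For Moxd1, the list of copper monooxygenases and copper handling moved both ways, 14 of its genes being measured. At 1 week 3 rose and 5 fell, at 2 weeks 5 rose and 4 fell, and at 6 weeks 3 rose and 5 fell, with medians of -0.01, 0.02 and 0.05, and over the alternatives 1 to 4, 1 to 6 and 3 to 5 rose. Beside these, 25.9%, 22.9% and 24.5% of all genes were called higher and 15%, 14.9% and 16.2% lower. Dbh and Moxd2, the nearest relatives, were on no array. Pam, the copper monooxygenase that amidates peptide hormones, rose by 1.20, 1.13 and 1.41 (SE 0.30, limma adjusted p = 0.00577, 0.0107 and 0.00334). Atp7a, a copper-exporting pump, rose by 0.70, 0.92 and 1.58. Sod1, the copper and zinc superoxide dismutase, fell by 1.13, 0.92 and 0.70, and Ccs, its copper chaperone, fell by 0.95, 0.80 and 0.47. Slc31a1, the copper importer, fell by 0.48, 0.63 and 0.63, and each of these passed limma's test at every week. With normexp the calls of Pam at 1 and 2 weeks and of Atp7a at 1 week were lost, as was that of Pam at 1 week without the first CDAHFD array and at 2 weeks without the first control or the second CDAHFD array. Those of Ccs at 6 weeks and Slc31a1 at 1 and 2 weeks were lost with median centring.

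**Figure D3:**
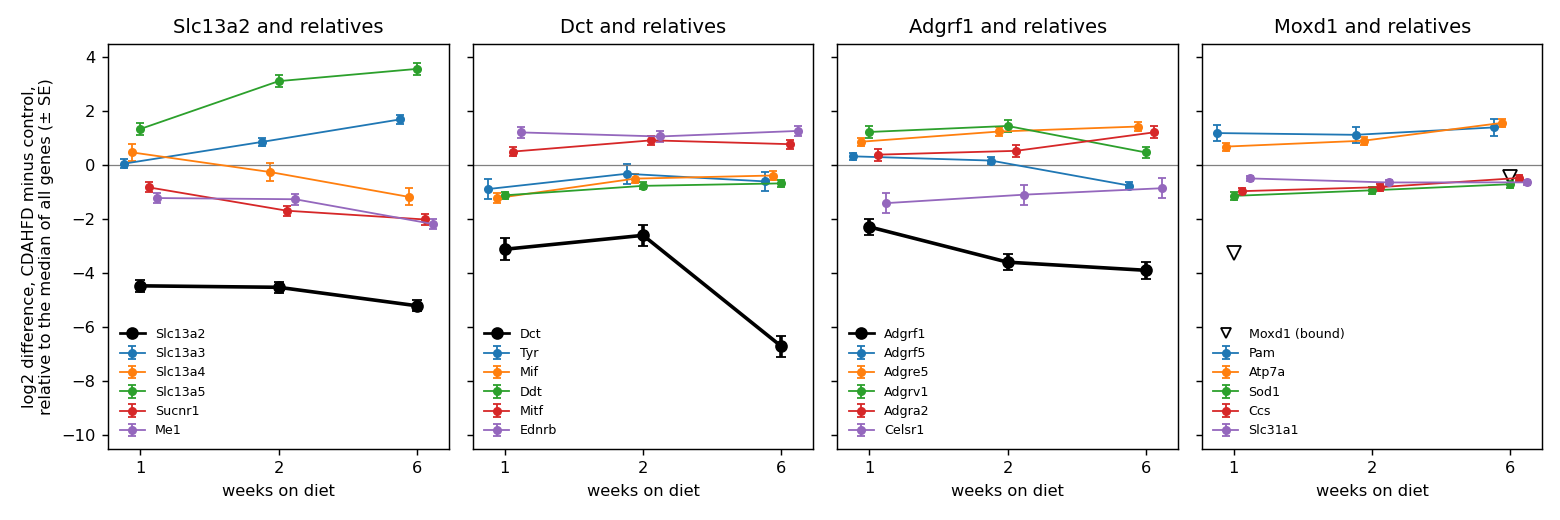
The log2 difference between diets, CDAHFD minus control and relative to the median of all genes, is drawn by week for each gene (black) and for 5 relatives (colours), with bars for the standard error of the fit. Slc13a5 reaches 3.58 where Slc13a2 reaches -5.20, and none of the relatives drawn lies as low as Slc13a2, Dct or Adgrf1 at any week, while Moxd1 is shown as bounds at 1 and 6 weeks.

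Genes of hepatocyte identity fell as well, with medians nearer to 0 than the differences of Slc13a2, Dct and Adgrf1. Of 24 identity genes, 17 fell and 1 rose at 1 week, 14 fell and 0 rose at 2 weeks, and 12 fell and 0 rose at 6 weeks, with medians of -0.75, -0.69 and -0.47. Their summed level was 742 to 900.1 in controls and 404 to 482 in CDAHFD at 1 week, and 503 to 532 and 386 to 435 at 6 weeks. So this list was nearest to its controls at 6 weeks, when Dct and Slc13a2 were farthest from theirs. Over the alternatives the number that fell ran from 7 to 19, 6 to 20 and 5 to 18, with the median below 0 in all of them. Pericentral genes, which mark the zone around the central vein, fell in 6, 5 and 6 of 13 and rose in 0, 1 and 3, with medians of -0.74, -0.71 and -0.67. Periportal genes fell in 5, 5 and 5 of 12 and rose in 2, 3 and 3, with medians of -0.42, -0.58 and -0.08. The share of a changed cell make-up in the low levels of the 4 genes was not tested. The 5th percentile of all genes was -1.05, -0.99 and -1.04 at the 3 weeks. The differences of Slc13a2, Dct and Adgrf1 lay below it, but these genes were chosen for their loss, so nothing is read from that place.

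Across the 12 arrays the levels of the 4 genes went together, with a Pearson r of 0.93 between Slc13a2 and Adgrf1 and 0.90 between Dct and each of them. Moxd1 had r of 0.73, 0.66 and 0.69 with Slc13a2, Dct and Adgrf1, with 9 of its 12 arrays not well above background. These are descriptions over arrays that fall into 2 diets, which alone brings many genes to a high r: of 13188 genes compared, 201 had an r of at least 0.95 with Slc13a2, 115 with Adgrf1 and 17 with Dct.

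The genes with the pattern most like Slc13a2 were Lap3, an aminopeptidase, Srr, serine racemase, the carboxylesterase Ces2a, Tmie and Pecr, an enoyl-CoA reductase of peroxisomes, each with an r of 0.99. Of these Ces2a came nearest in size, with differences of -3.32, -3.57 and -3.90, whereas Lap3 was at -0.90, -0.94 and -0.89. The measure follows the shape over arrays and not the size.

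For Dct they were Meig1, Dnaja3, Cadm4, Mpv17l and Ugt2b5, with r from 0.97 to 0.98. Meig1, known for its role in sperm formation, was at -2.06, -2.09 and -4.37. It was well above background on 10 of 12 arrays, so these sizes are less sure. Cadm4, a cell adhesion molecule, was at -0.91, -1.15 and -2.87, and Mpv17l at -1.12, -1.23 and -2.72. Dnaja3, at -0.28, -0.31 and -0.53, and Ugt2b5, at -0.51, -0.80 and -1.16, stepped less between 2 and 6 weeks. All were picked for following Dct over the same arrays, so a shared step is no separate finding. For Adgrf1 the nearest genes, picked in the same way, were Lifr, Flt1, Pde9a, Bcs1l and Nat8f1, with r from 0.98 to 0.99. Lifr, the receptor of leukaemia inhibitory factor, was at -1.82, -2.30 and -2.82, and Pde9a, a cyclic GMP phosphodiesterase, at -0.98, -1.71 and -1.90. Bcs1l was at -0.63, -0.71 and -0.74, and Nat8f1 at -1.02, -1.38 and -1.48. Flt1, at -0.53, -0.84 and -0.83, did not widen after 2 weeks. For Moxd1 the nearest genes included Tmem53, Tufm, H2bc14 and Slc9a3r1, with r from 0.94 to 0.95. Tufm, the mitochondrial translation elongation factor, was at -0.77, -0.30 and -0.29, with its largest difference at 1 week.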

How the data were processed

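Liver RNA (150 ng, Cy3) was measured on 12 one-colour arrays, and the number of arrays limits the precision. The deposited values are scanner intensities per spot, background-subtracted by Agilent Feature Extraction (version 11.5.1.1 per the file headers, 10.7 per the submitters' processing notes), and not normalized between arrays. Here log2 processed intensity minus each array's 75th percentile was taken, over probes well above background on all arrays (20137 of 55681), since fewer probes than not were detected on each of the 12 arrays. Probes were named through RefSeq accessions (28658 of 55681, 21609 symbols). Where several probes of a gene passed the filter on dim probes, the gene was read from that with the highest mean level. Groups were compared with limma 3.58.1 in R 4.3.3 (trend, robust, 6 group means, Benjamini-Hochberg over 13897 genes), which was tested on simulated data. Differences have the median of all genes, 0.13, 0.05 and 0.03 log2 at 1, 2 and 6 weeks, subtracted, bounds do not, and p-values are those of the unshifted differences. Normexp used median signals, the only ones given. The members and lists, and the rule for named genes (the members, 5 nearest genes each, closest relatives and the relatives with the smallest p), were chosen with earlier results of these data known. Some genes that the rule or the lists hold are not reported here. Some genes outside that rule (Adgre1, Sox10, Itgam, Pmel, Celsr1, Adgra3, Adgrg3, Adgrl4) were named after their values were seen. The alternatives were other scalings, filters, backgrounds, probes and fits, a replicate block, and each array left out.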

Additional observations from a re-analysis of the deposited data

How the results depend on the processing

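Under every alternative run, Slc13a2, Dct and Adgrf1 stayed lower in CDAHFD at all 3 weeks, and normexp, whose offset adds a constant to dim signals, gave smaller differences for each of them. Normexp gave -2.67, -2.36 and -2.99 for Slc13a2 at 1, 2 and 6 weeks, -2.52, -2.18 and -5.21 for Dct, -1.67, -2.51 and -2.53 for Adgrf1, and a bound of -1.59 for Moxd1 at 1 week. Without the filter on dim probes Slc13a2 was -4.20 at 1 week, and the second Dct probe, an alternative chosen after seeing the data, gave -3.02 at 2 weeks. With the controls of 2 and 6 weeks in place of those of 1 week, Adgrf1 was -1.86 and the Moxd1 bound turned to 0.17. Leaving out each array in turn gave -4.59 to -4.35, -4.75 to -4.27 and -5.45 to -4.94 for Slc13a2, -3.40 to -2.77, -3.16 to -2.02 and -7.01 to -6.43 for Dct, -2.57 to -2.01, -3.87 to -3.32 and -4.30 to -3.50 for Adgrf1, and for the bounds of Moxd1 -3.91 to -2.62 at 1 week and -1.07 to -0.41 at 6 weeks. The filter on all 12 arrays left no value for Moxd1.

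The number of genes called was 5689, 5258 and 5658 for the diet at 1, 2 and 6 weeks, and with one array left out 3122 (the first 1-week CDAHFD array) to 6199, 3382 (the second 2-week CDAHFD array) to 5810 and 4021 to 5774. Normexp gave 3432 at 2 weeks and 3771 at 6 weeks. Between 1 and 2 weeks within control, 1125 became 469 with median centring, 422 with normexp, 646 with array weights and 529 (the first 1-week control) to 1529 with one array left out, both 2-week controls and both 2-week CDAHFD arrays also moving it by over 1.5 times. Between 1 and 2 weeks within CDAHFD, 39 became 17 with median centring, 17 with the mean of a gene's probes, 61 with normexp, 361 with array weights, 11 without trend and robust, and 1 to 99 with one array left out. Between 1 and 6 weeks the count was 2210 within control (1057 with normexp, 573 to 2718 with one array left out, lowest without the first 6-week control) and 957 within CDAHFD (510 with median centring, 494 with array weights, 72 to 1317 with one array left out, lowest without the second 1-week CDAHFD array). The cause was not tested. Over genes, the difference between replicates 1 and 2 of one group correlated with that of another group at -0.14 to 0.22. Of 15 pairs of groups, 4 were over 0.1, so the replicate numbers were not taken as pairs. With the replicate block the counts were 5670, 5279 and 5682 for the diet at the 3 weeks, and none of the 6 tests between 1 and 2 weeks passed. Signal over background limits Slc13a2 in CDAHFD after 1 week and Moxd1 on 9 of 12 arrays.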
